A study of Mus musculus with 8 samples.

Results

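The Hedgehog pathway was described in bone marrow mesenchymal stem cells (MSCs) through 9 genes, Ihh, Ptch1, Hhip, Gas1, Smo, Sufu, Gli1, Gli2 and Gli3, selected by gene name from 47643 named genes of the RNA-seq table. All 9 were listed there, and 8 passed the filter on low counts, Hhip being the exception. MSCs were flushed from the tibiae and femurs of C57BL/6 mice and kept for 2 days in osteogenic medium holding dexamethasone at 100 nM, β-glycerophosphate at 5 mM and ascorbic acid at 50 μg/ml, in every group. The RNA-seq comparison set 2 libraries labelled cKO (genotype Prx1-cre;Mettl3fl/fl) against 2 labelled WT (genotype wild type, Mettl3fl/fl littermates in the study). m6A was mapped in WT cells only, as 1 peak list for 2 m6A immunoprecipitates and 2 inputs. The Prx1 promoter drives Cre in limb mesenchyme and not in blood cells. The ages of the donor mice, and whether mice were pooled for a library, are not given in the sources used here.

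Hedgehog ligands bind the receptor Patched 1, which otherwise keeps the membrane protein Smoothened silent. Released Smoothened acts at the primary cilium, where it frees the Gli transcription factors from their inhibitor Sufu. Gli2 then acts mainly as an activator and Gli3 mainly as a repressor, and Gli1, Ptch1 and Hhip are themselves transcribed in response to the signal. In the skeleton, Indian hedgehog from prehypertrophic chondrocytes controls the growth plate and is needed for osteoblast formation in the bone collar.

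The largest difference among these genes was in Gli2, which was 6.59-fold higher in cKO libraries. Ihh, Ptch1 and Smo were lower, by 3.37-fold, 1.84-fold and 1.22-fold. Gli1, Gli3, Gas1 and Sufu did not pass the test. In all, 4 of 8 tested genes (1 higher, 3 lower) had an adjusted p under 0.05, where 30.5% of all 15327 tested genes did (13.7% higher and 16.8% lower in cKO). The count was 7 without WT replicate 1 and 2 without either cKO replicate, with 8719 calls over all genes without WT replicate 1, 7927 without WT replicate 2, 1930 without cKO replicate 1 and 1889 without cKO replicate 2. Over all genes, 2100 calls were higher and 2577 lower, but on the log2(TPM + 0.1) scale 1779 were higher and 1442 lower (limma). Libraries of the groups did not overlap for 5 of the 8 genes (Ihh, Ptch1, Smo, Gli2 and Gli3), where 68.9% of all tested genes did so. Past a 4-fold difference as well was Gli2 alone, as were 3.95% of all tested genes. The median log2 fold change of the 8 genes was −0.10, beside −0.0038 for all tested genes. The levels below are counts per 1000000 on TMM-scaled library sizes (CPM), and the tests are edgeR's quasi-likelihood test, two-sided, with Benjamini-Hochberg adjustment over all tested genes.

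**Figure D1:**
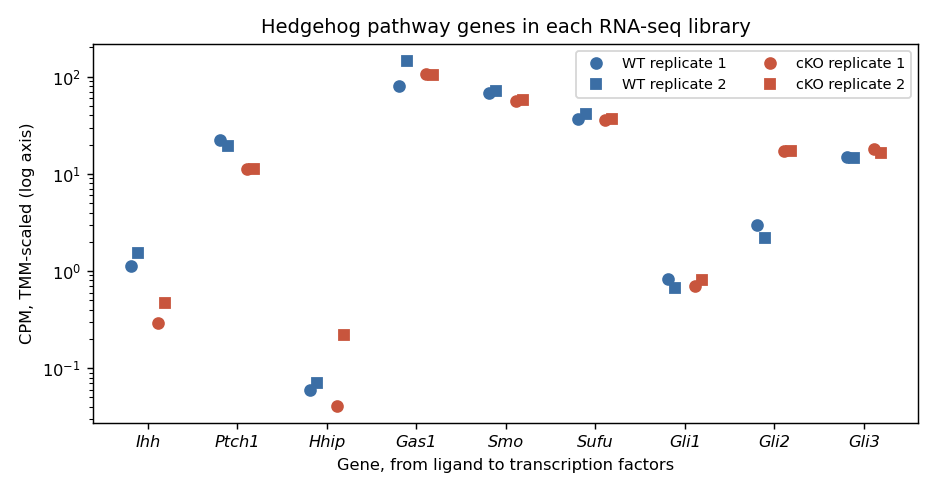
CPM of each Hedgehog gene (log axis) in the 4 RNA-seq libraries, with WT in blue, cKO in red, circles for replicate 1 and squares for replicate 2. Gli2 stood at 17.2 and 17.3 CPM in cKO against 2.99 and 2.19 CPM in WT, whereas the WT replicates of Gas1 (80.6 and 144 CPM) lay on either side of the cKO replicates.

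Libraries held 23978099 to 34106693 counts. The WT replicates differed far more from each other than the cKO replicates, with a chi-square statistic per gene of 32.6 and 1.82. Nothing in the labels says that replicates came from separate mice or cultures, so the p-values measure only the spread between these libraries. Mettl3 itself was at 17.6 and 16.9 CPM in WT and at 17.5 and 16.3 CPM in cKO (adjusted p = 0.824, edgeR), but its count covers the undeleted exons too, and the gene overlaps Tox4 on the other strand, so the count does not check the labels. Of markers of the labelled cell type, Pdgfra, Pdgfrb, Prrx1 and Cxcl12 were present at over 100 CPM in all 4 libraries, and Lepr was near 1 CPM. The largest differences among these markers were in Thy1, at 3.93 and 1.91 CPM in WT and 74.7 and 69.4 CPM in cKO, and in Nt5e, which fell from 12.3 CPM in each WT library to 2.85 and 2.04 CPM. Macrophage markers were high in every library, with a summed level of 16617 and 20921 CPM in WT and 22136 and 22235 CPM in cKO. Of these, 2 of 8 (Ptprc and C1qa) rose while Lyz2, the most abundant, did not pass. The share called, 25%, was below the 30.5% of all tested genes (13.7% higher and 16.8% lower). Of 8 adipocyte markers 6 rose and 1 fell (87.5% called). Their sums, led by Lpl, were 637 and 659 CPM in WT and 1098 and 1120 CPM in cKO. Of 7 tested osteoblast markers 5 fell and none rose (71.4% called). Their sums were 7862 and 16668 CPM in WT and 6973 and 6938 CPM in cKO, led by Spp1, which did not pass. Endothelial markers summed to 3.64 and 3.22 CPM in WT and 17.1 and 14.5 CPM in cKO. Of 3 tested, Kdr and Emcn rose (66.7% called, beside 30.5% of all tested genes). Emcn passed the filter on low counts through its cKO libraries, the group where it was high. Cdh5 was lower without passing, at 0.414 and 0.389 CPM in WT and 0.165 and 0.188 CPM in cKO. It entered the test through its WT libraries alone. Tek and Pecam1 had too few counts to be tested, with Tek higher in both cKO libraries. Pecam1 was under 0.3 CPM throughout and lower in both cKO libraries. Neutrophil markers summed to at most 3.64 CPM, and S100a8, the only one tested, fell from 2.721 and 3.396 CPM to 0.784 and 0.377 CPM (adjusted p = 0.00475, edgeR), with Mpo and S100a9 at 0 throughout, and erythroid markers summed to at most 0.578 CPM. The part of any of these cell types in the results below was not tested.

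Ihh (ENSMUSG00000006538, chr1:74945315-74951672 on GRCm38), the ligand of the growth plate, was scarce, with 38 and 43 counts in WT (1.12 and 1.52 CPM) and 7 and 15 counts in cKO (0.289 and 0.471 CPM). Both cKO libraries were below both WT libraries. With 7 counts in cKO replicate 1, Ihh passed the filter on low counts through its WT libraries. The means were 1.32 ± 0.281 and 0.380 ± 0.129 CPM (SD, n = 2), or −1.75 on the log2 scale (standard error 0.406, 95% interval −2.73 to −0.77, adjusted p = 0.0209 in edgeR). The direction held in all 12 alternative analyses, but the call was lost in 4 of them. These included the fits without cKO replicate 1 (−1.48), without cKO replicate 2 (−2.17) and with cKO libraries summed (−1.74). The remaining loss was in the ordinary linear model on log2(TPM + 1), at −0.71 (adjusted p = 0.141). Chondrocyte markers moved with Ihh: 7 of 8 tested were lower in cKO and none was higher (87.5% called, beside 30.5% of all tested genes). Their summed level was 3727 and 3806 CPM in WT and 87.3 and 86.0 CPM in cKO. Matn1, not tested for lack of counts, went the other way, with 6 and 6 counts in WT and 14 and 10 in cKO. Col2a1, the main cartilage collagen, fell from 2405 and 2195 CPM to 47.9 and 51.5 CPM. Of the 6 prehypertrophic and hypertrophic markers, Ihh included, 4 were lower and 1 (Mef2c) was higher (83.3% called). Col10a1, the collagen of hypertrophic chondrocytes, fell from 62.7 and 96.1 CPM to 1.98 and 1.88 CPM. It overlaps Nt5dc1 by 7105 bp on the other strand. Nt5dc1 had 400 to 556 counts per library, and whether counting used strand is not stated. The part of these cells in the Ihh result was not tested, and in bulk RNA fewer cells of a type cannot be told apart from less RNA per cell.

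Ptch1 (ENSMUSG00000021466, chr13:63508328-63573598 on GRCm38), the receptor and a transcriptional target of the pathway, was at 22.1 and 19.2 CPM in WT and at 11.1 and 11.3 CPM in cKO. The fall was larger than the gap between WT replicates, with means of 20.7 ± 2.02 and 11.2 ± 0.107 CPM (SD, n = 2), and the log2 ratio was −0.88 (standard error 0.107, 95% interval −1.14 to −0.62, adjusted p = 0.00199 in edgeR). It passed with each library left out. On the deposited length-scaled values it was smaller and did not pass (−0.64 on the log2(TPM + 0.1) scale, adjusted p = 0.0782 in limma). The genes whose pattern over the 4 libraries was nearest to that of Ptch1, by Euclidean distance of log2 CPM centred on each gene's mean, included Hspb7 (0.0276) and Flt4 (0.0367).

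Hhip (ENSMUSG00000064325, chr8:79966115-80058006 on GRCm38), a decoy receptor that is likewise a target, was at the limit of detection with 2 and 2 counts in WT and 1 and 7 counts in cKO. The ratio of summed levels was 2.21 with an exact counting interval from 0.593 to 10.0, so no difference was detectable at this depth. Gli1 (ENSMUSG00000025407, chr10:127329889-127341589 on GRCm38), the transcription factor most often used as a readout of the pathway, was also scarce, at 28 and 19 counts in WT (0.828 and 0.672 CPM) and 17 and 26 counts in cKO (0.702 and 0.816 CPM). Its groups overlapped, and the log2 fold change was 0.02 with a 95% interval from −0.83 to 0.86 (adjusted p = 0.978, edgeR), so the data bound the change only to that range. Gli1 shares 55 bp with the end of Arhgap9 on the other strand, which had 1032 to 1294 counts per library, and whether counting used strand is not stated in the sources used here. Genes nearest to Gli1 in pattern were 9430016H08Rik (distance 0.0127), Zranb2 (0.0174) and 1700037H04Rik (0.0186). The 3 targets of the feedback loop thus gave a fall for Ptch1, a wide interval around 0 for Gli1 and too few counts for Hhip, and whether they differed from each other was not tested.

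Smo (ENSMUSG00000001761, chr6:29735503-29761365 on GRCm38), the membrane protein that passes the signal on, was at 67.3 and 71.7 CPM in WT and at 56.7 and 57.3 CPM in cKO. The groups did not overlap, but the difference was small, at −0.29 in log2 units (standard error 0.0651, 95% interval −0.44 to −0.13, adjusted p = 0.0199 in edgeR). The call was lost in 6 of 12 alternatives. These were the fits without either cKO replicate, with cKO libraries summed and on the TPM scale (adjusted p = 0.145 in limma on log2(TPM + 0.1)). Gas1 (ENSMUSG00000052957, chr13:60174405-60177365 on GRCm38), a co-receptor that binds the ligand together with Ptch1, had the highest level and the widest WT spread, with 80.6 and 144 CPM in WT and 107 and 104 CPM in cKO. Both cKO libraries lay between the WT replicates, which differed 1.79-fold, a gap reached by 1.08% of the 11562 tested genes with a mean of at least 100 counts. The log2 fold change was −0.10 (95% interval −0.68 to 0.49, adjusted p = 0.799 in edgeR), and its sign was set by the WT library kept: −0.46 without WT replicate 1 and 0.38 without WT replicate 2, past the threshold in either case (adjusted p = 1.47e-23 and 1.86e-13, edgeR).

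Sufu (ENSMUSG00000025231, chr19:46396896-46488804 on GRCm38), the cytoplasmic inhibitor of Gli proteins, was at 36.6 and 41.3 CPM in WT and at 35.9 and 36.8 CPM in cKO. The groups overlapped, and the log2 fold change of −0.10 had a 95% interval from −0.30 to 0.11 (adjusted p = 0.425, edgeR). Without WT replicate 1 it was −0.18 and passed (adjusted p = 0.0138).

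**Figure D2:**
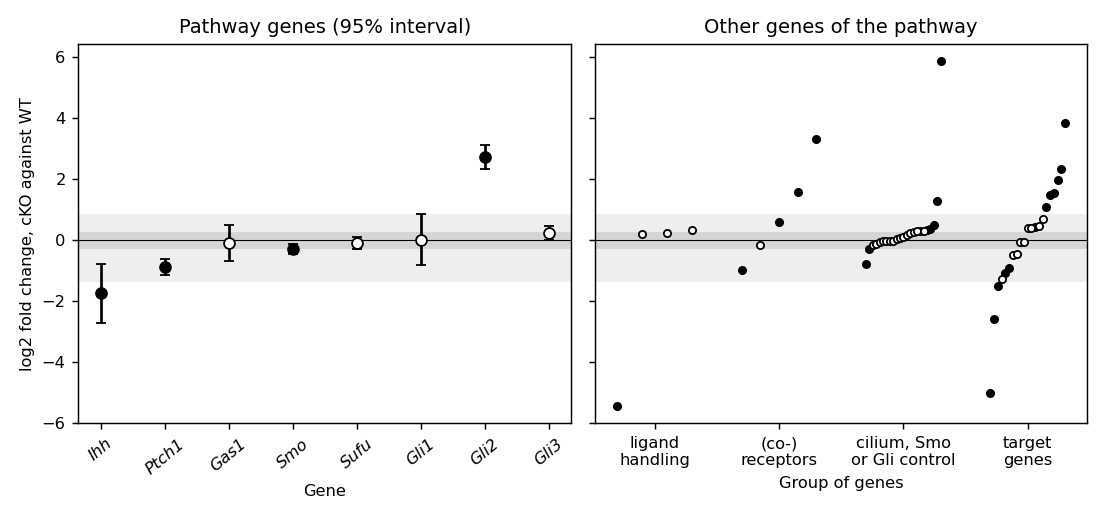
Log2 fold changes, cKO against WT, of the 8 tested genes with 95% intervals (left) and of the 53 other tested genes of the pathway in 4 groups (right), with filled points for an adjusted p under 0.05. The dark band spans percentiles 25 to 75 and the light band percentiles 5 to 95 of all tested genes; Gli2 at 2.72 lies above the light band, Ihh at −1.75 lies below it, and the highest points of the receptor and cilium groups (Lrp2 and Zic2) had at most 3 counts in each WT library, so their height depends on the model's prior count.

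Gli2 (ENSMUSG00000048402, chr1:118834132-119053619 on GRCm38), the main activator among the Gli factors, had 101 and 62 counts in WT (2.99 and 2.19 CPM) and 416 and 550 counts in cKO (17.2 and 17.3 CPM). Every cKO value was more than 5 times every WT value. The means were 2.59 ± 0.561 and 17.2 ± 0.0620 CPM (SD, n = 2), and the log2 ratio was 2.72 (standard error 0.160, 95% interval 2.33 to 3.11, adjusted p = 0.000111 in edgeR). A change at least as high was seen in 84 of the tested genes (0.548%). It passed in 11 of 12 alternatives, the exception being the ordinary linear model on log2(TPM + 1), in which it was 1.71 (adjusted p = 0.0790). Gli2 and Prrx1, a transcription factor of limb mesenchyme, both rose, Prrx1 from 146 and 134 CPM to 288 and 289 CPM. However, of 10 mesenchymal stromal markers 4 rose and 4 fell (80% called, beside 30.5% of all tested genes). Their summed levels were 1059 and 946 CPM in WT and 1119 and 1111 CPM in cKO. Whether the make-up of the cultures has a part in the Gli2 result was not tested.

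Gli3 (ENSMUSG00000021318, chr13:15463235-15730026 on GRCm38), the main repressor, was at 15.03 and 14.54 CPM in WT and at 18.2 and 16.5 CPM in cKO. Both cKO libraries were above both WT libraries, but the log2 fold change of 0.23 did not pass (standard error 0.0984, 95% interval −0.01 to 0.47, adjusted p = 0.128 in edgeR). Without WT replicate 1 it was 0.25 and passed (adjusted p = 0.0218), and on the TPM scale it was 0.56 without passing (limma on log2(TPM + 0.1)).

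Levels of the Hedgehog genes were compared with each other only on the deposited TPM scale, which corrects for length. In WT the order was Gas1 (38.9 and 68.1 TPM), Smo (25.3 and 26.2), Sufu (16.5 and 17.2), Ptch1 (4.49 and 3.77), Gli3 (3.23 and 2.75), Ihh (0.890 and 1.15), Gli2 (0.610 and 0.440), Gli1 (0.320 and 0.250) and Hhip (0.0200 in each), and no neighbours overlapped. In cKO Gli2 moved to 3.76 and 4.21 TPM, where it overlapped Gli3 (4.85 and 4.06 TPM) and stood above Ptch1 (2.90 and 2.35 TPM), and Ihh (0.180 and 0.290 TPM) overlapped Gli1 (0.280 and 0.330 TPM). Of the summed TPM of the 3 Gli genes, Gli2 made up 14.7% and 12.8% in WT and 42.3% and 49.0% in cKO, and Gli3 77.6% and 79.9% in WT and 54.6% and 47.2% in cKO. The ratio of Gli2 to Gli3 was 0.189 and 0.160 in WT and 0.775 and 1.04 in cKO on that scale. With 2 libraries against 2, an exact two-sided permutation test of such a ratio cannot go below p = 0.333, so it is given as a description.

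**Figure D3:**
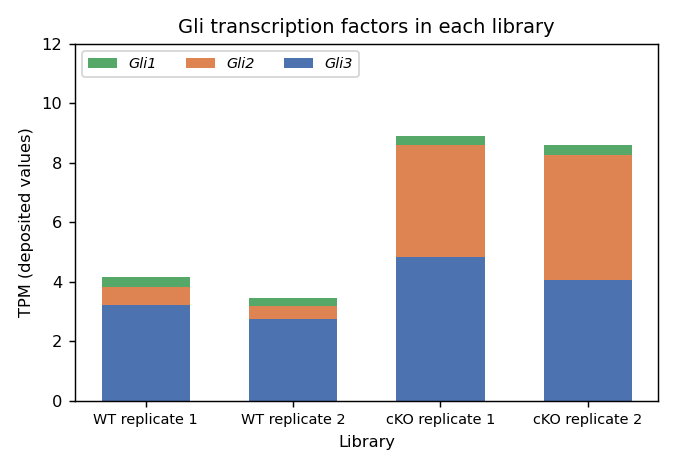
Deposited TPM of Gli3 (blue), Gli2 (orange) and Gli1 (green), stacked for each library. The summed level was 4.16 and 3.44 TPM in WT and 8.89 and 8.60 TPM in cKO, and most of the added height is Gli2.

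Of 61 other genes of the pathway in the table, 53 were tested and 25 of these (47.2%) passed, 16 higher and 9 lower in cKO, beside 30.5% of all tested genes (13.7% higher and 16.8% lower). Their median log2 fold change was 0.19 (−0.0038 over all tested genes), and the count was 40 without WT replicate 1 and 16 without either cKO replicate. Scube1, a member of a family of secreted proteins that help release lipid-modified ligand, was the only one of 4 tested ligand-handling genes to pass. It fell from 41.8 and 49.4 CPM to 1.28 and 0.847 CPM, a log2 fold change of −5.45 (adjusted p = 1.42e-05, edgeR). Disp1, which exports the ligand, and Hhat, which acylates it, did not pass (adjusted p = 0.385 and 0.417). The other ligands, Shh and Dhh, were not tested for lack of counts, with at most 4 counts in any library.

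Among 5 tested receptors and co-receptors 3 were higher and 1 lower (80% called, beside 30.5% of all tested genes, with 13.7% higher and 16.8% lower). Cdon, a ligand-binding co-receptor like Gas1, fell from 15.9 CPM in each WT library to 7.68 and 8.47 CPM (log2 fold change −0.97, adjusted p = 0.00129), while its relative Boc was at 13.4 CPM in each WT library and at 13.1 and 11.1 CPM in cKO (adjusted p = 0.368, edgeR). Whether Cdon and Boc differed in response was not tested. The glypicans Gpc6 (97.6 and 97.2 to 145 and 148 CPM) and Gpc4 (36.2 in each to 109 and 106 CPM) rose, with log2 fold changes of 0.59 and 1.57. Lrp2, a large endocytic receptor, had 4 counts in WT and 38 in cKO, a ratio of 10.5 with an exact counting interval from 3.79 to 40.6. It passed the filter on low counts through its cKO libraries alone, the group where it was high.

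Of 23 tested genes of the cilium and of Smo or Gli control, 6 were higher, 2 lower and 15 did not pass, so that 34.8% were called where 30.5% of all tested genes were. Kif7, the ciliary kinesin that organizes Gli proteins, fell from 7.72 and 9.38 CPM to 4.83 and 5.08 CPM (log2 fold change −0.78, adjusted p = 0.0119 in edgeR). The call was lost in 6 of 12 alternatives, among them without either cKO replicate (adjusted p = 0.0888 without cKO replicate 1 and 0.0714 without cKO replicate 2) and on the log2(TPM + 0.1) scale (0.0693 in limma). Kif7 overlaps Ticrr by 51 bp on the other strand. Gpr161, a ciliary receptor that restrains the pathway, rose from 6.71 and 6.30 CPM to 15.8 and 16.0 CPM (1.28). Zic2, a zinc finger protein related to Gli, had 1 count in WT and 67 in cKO, a ratio of 74.1 with an exact counting interval from 12.9 to 2971. It passed the filter on low counts through its cKO libraries alone, the group where it was high. Prkar1a, a regulatory subunit of protein kinase A with the highest mean CPM of the group, was at 435 to 461 CPM in all libraries (adjusted p = 0.800, edgeR). On the TPM scale Arrb2 stood above Prkar1a in every library. Arrb2 was at 277 and 322 TPM in WT and 407 and 423 TPM in cKO, and was called higher (adjusted p = 0.0405, edgeR). Prkar1a was at 202 and 200 TPM in WT and 216 and 222 TPM in cKO.

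Genes often given as Hedgehog targets moved in both directions, with 7 higher, 5 lower and 9 not passing of 21 tested (57.1% called, beside 30.5% of all tested genes, with 13.7% higher and 16.8% lower). The largest fall was that of Foxf1, a mesenchymal forkhead factor, from 7.48 and 8.95 CPM to 0.206 and 0.282 CPM (log2 fold change −5.02). Foxf1 passed the filter on low counts through its WT libraries alone, the group where it was high. Foxc2 (−2.59), Nkx3-2 (−1.50), Foxc1 (−1.09) and Foxd2 (−0.93) fell too. The largest rise was that of Osr2, a zinc finger factor of limb and palate mesenchyme, from 0.710 and 0.849 CPM to 11.47 and 11.04 CPM (3.85). Prdm1 (2.34), Osr1 (1.97), Bmp4 (1.54), Igfbp6 (1.49), Bcl2 (1.08) and Cdk6 (0.43) rose too. The adjusted p-values of these 12 genes in edgeR were between 1.55e-05 and 0.0461. Ccnd2, a D-type cyclin with the highest mean CPM of the targets, was at 308 and 212 CPM in WT. Both cKO libraries (243 and 251 CPM) lay between them. The log2 fold change of Ccnd2 was 0.22 without WT replicate 1 and −0.32 without WT replicate 2. On the TPM scale Ccnd1 stood above Ccnd2 in every library. Ccnd1 was at 96.5 and 61.5 TPM in WT and 112 and 112 TPM in cKO. Ccnd2 was at 71.5 and 49.1 TPM in WT and 56.9 and 69.2 TPM in cKO.

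m6A peaks were present on 6 of the 9 genes, in all 10 peaks. All 6 were among the 8 tested genes, whereas 40.1% of 14118 tested genes in the mm9 annotation had at least 1 peak. Gas1 carried 3 peaks, Gli3 and Sufu 2 each, and Ptch1, Smo and Gli2 1 each. Of all tested genes with a peak, 36.8% had 2 or more and 13.4% had 3 or more. Ihh, Gli1 and Hhip, which had no peak, were among the 4 genes of lowest TPM in WT. The share of genes with a peak rose with expression, from 12.2% in the lowest decile of tested genes, where Gli1 and Gli2 lie, to 51.9% in decile 6, that of Sufu, and was 37.5% in the highest. The depth of the MeRIP-seq samples is unknown, and the peak values, made by the authors' peak caller, carry no replicate error.

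**Figure D4:**
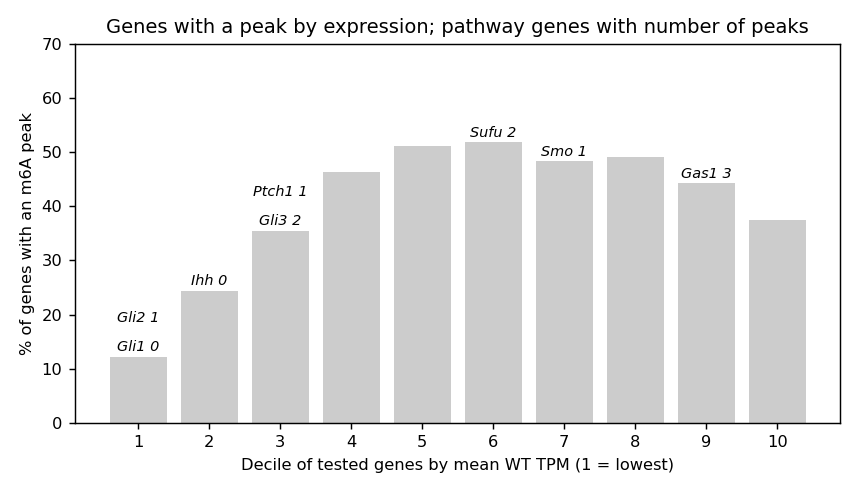
Share of tested genes with at least 1 m6A peak (bars) in deciles of mean WT TPM, from lowest (1) to highest (10). Names mark the decile of each tested Hedgehog gene, with its number of peaks; Gli2 has a peak in the lowest decile, where 12.2% of genes do.

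m6A is laid down mostly in a sequence context with GGAC at its core, of which the A is the methylated base. In the lines below, GGAC is in capitals with 10 bases on each side, on the transcript strand from 5′ to 3′. The bases are taken from the mm9 genome. For each gene the GGAC nearest to any of its peak summits is shown, because there a methylated A could lie closest to a summit. That peak need not be the gene's strongest. The Gli3 line is from its peak with a fold enrichment of 5.88, not 7.11. The Gas1 line is from its coding peak, and the Sufu line from its peak with a fold enrichment of 1.92.
Ptch1, chr13:63613289-63613312, minus strand: cttgtcccctGGACggcaaggcca
Smo, chr6:29710100-29710123, plus strand: cagggagcctGGACtctagtctcc
Gli2, chr1:120731287-120731310, minus strand: attgattcttGGACtttgaggaac
Gli3, chr13:15817937-15817960, plus strand: atctatcaagGGACagagagctgc
Gas1, chr13:60277555-60277578, minus strand: cggtcatcgaGGACatgctggccg
Sufu, chr19:46560718-46560741, plus strand: tcctggaacgGGACagccttgcca
Of the 10 peaks, 9 held at least 1 GGAC on the transcript strand. Among 8583 peaks within genes of the same length range (204 to 1017 bp), 87.7% did. The A lay 0 to 47 nt from the summit in the 9 peaks, and in Gli2 it was the summit base itself.

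Gli3 had the peak of highest fold enrichment among these genes, and both of its peaks lay in the coding sequence of its last exon (exon 15 of 15). The upstream one (chr13:15816677-15817693) had a fold enrichment of 7.11, above 89.8% of all peaks, with its summit 1376 nt upstream of the stop codon and 5 GGAC. The other (chr13:15817784-15818056) had a fold enrichment of 5.88 and its summit 667 nt upstream. Gli2 had a peak (chr1:120731187-120731691) in the 3′UTR, 1064 nt beyond the stop codon, with a fold enrichment of 5.97. Its pileup was only 7, a value at or under which 1.52% of all peaks lie (median 60), and Gli2 itself was at 0.610 and 0.440 TPM in WT cells. The peak of Ptch1 (chr13:63612887-63613452) had a fold enrichment of 4.71, a pileup of 53 and 6 GGAC, with its summit in exon 23 of 23, coding at that point and 435 nt upstream of the stop codon.

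Gas1, a gene of 1 exon, carried peaks in 3 parts of its transcript. The peak with its summit in the 5′UTR (chr13:60278595-60278798) had a fold enrichment of 4.02 and held no GGAC. Part of this peak lay upstream of the annotated start of the gene, at chr13:60278726 on the minus strand. The peak in the coding sequence (chr13:60277441-60277918) had the highest pileup of the 10, 88, and a fold enrichment of 4.64. The peak in the 3′UTR (chr13:60276824-60277196) had its summit 160 nt beyond the stop codon and a fold enrichment of 2.45. Smo had a peak in its last exon (chr6:29710017-29710272, exon 12 of 12) with a fold enrichment of 2.94 and its summit 149 nt upstream of the stop codon. Sufu had the peak of lowest fold enrichment, and both its peaks lay in the 3′UTR of a transcript other than the one with the longest coding sequence. They lay 265 nt (chr19:46560369-46560771) and 562 nt (chr19:46560908-46561148) beyond the stop codon with fold enrichments of 1.92 and 2.63, the former above only 2.18% of all peaks.

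**Figure D5:**
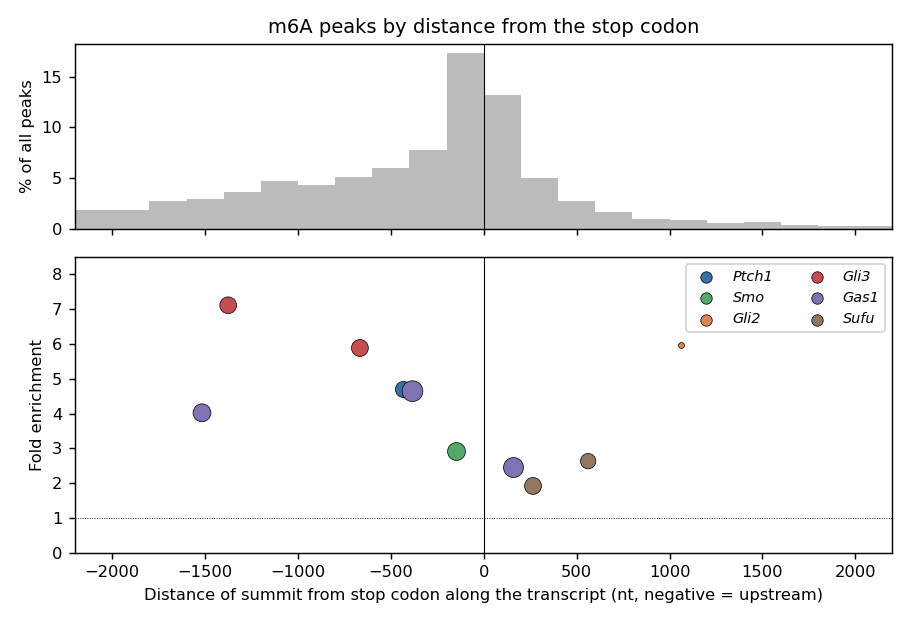
Distance of peak summits from the stop codon along the transcript, for all peaks placed on a coding transcript (top, in bins of 200 nt) and for the 10 peaks of Hedgehog genes against their fold enrichment (bottom, point area proportional to the pileup). The peaks of Smo and the 3′UTR peak of Gas1 lie within 200 nt of the stop codon, as do 30.5% of all placed peaks, and the 3 highest points, of Gli3 and Gli2, lie 667 nt or more from it.

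Peaks and expression changes were set side by side gene by gene. Of the 4 genes that differed between the genotypes, Ptch1 and Smo (lower) and Gli2 (higher) carried a peak in WT cells and Ihh (lower) carried none. Of the 4 tested genes that did not pass the test of expression, Gas1, Gli3 and Sufu carried 7 of the 10 peaks and Gli1 carried none. As many uncalled as called genes thus carried a peak, where 40.1% of all tested genes in the mm9 annotation did. m6A was not mapped in cKO cells, so that loss of these peaks cannot be read from the data.

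A consensus site of Gli proteins, GACCACCCA, was searched on either strand of the windows from 250 bases before to 50 after the RefSeq start (GRCm38.p6), with a window for each of the 9 genes but Gli1. The motif was in 0 of these 8 windows and in 0.253% of all 32851 windows, a share so low that its absence from 8 windows carries no information.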

How the data were processed

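RNA-seq of 2 WT and 2 cKO libraries and MeRIP-seq of 2 m6A immunoprecipitates and 2 inputs were used as deposited. For RNA-seq, the authors checked polyadenylated RNA libraries (NEBNext Ultra) with FastQC and the FASTX toolkit, mapped reads with HISAT2 (2.0.4 per the labels) and tested genes with Ballgown; the counting tool and its strand setting are not given in the sources used here. The authors deposited estimated counts per gene, not normalized, which were rounded. They also deposited values headed FPKM that sum to 1000000 in each library and were therefore treated as TPM. The labels name mm10 and mm9, TopHat and MACS2 without a role. Gene positions in the table are those of GRCm38, and peaks fit mm9. The deposited peak list, in the layout of MACS2 output, gives a pileup signal for each summit, a fold enrichment (a ratio to local background) and a −log10 q-value, the last under a damaged header and recognised by its place in the column order. Whether samples were pooled for peak calling is not stated.

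Of 47732 entries, 89 without a gene name (0.110% to 0.125% of counts) were left out. After filterByExpr and TMM scaling, glmQLFit and glmQLFTest of edgeR 4.0.16 were run without a block at an adjusted p of 0.05. A gene could pass the filter through the group where it was higher alone, so counts of calls by direction are a description. The procedure was also run on simulated counts in which both groups shared a dispersion trend. The real WT and cKO pairs differed in spread, so that run does not check the calls made here. Standard errors were derived from F statistics. Levels are mean ± SD. For genes with few counts, exact conditional intervals at 95% cover only the error of counting, as PCR copies cannot be told from separate molecules here. Depth (23978099 to 34106693 counts) limits genes under about 1 CPM. Peaks were assigned by summit to GENCODE vM1 genes on mm9, and distances were taken on the coding transcript with the longest CDS, or, where that lacked the summit, on the longest-CDS transcript holding it.

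Members and lists were chosen with earlier results of these data known. Named genes were the 9 members and Mettl3. From each group of other pathway genes came the largest rise and fall past the threshold and the gene of highest mean CPM. From cell type lists that moved came the marker of highest mean CPM or a defining marker. Added to these were the 3 tested genes nearest to Gli1 and Ptch1 in log2(CPM + 0.5). Hhip was not tested and has none. A gene that this rule selects for Ptch1 is not reported here. Other genes, such as Gpc4, Boc, Disp1, Hhat, Gpr161, Foxc2, Prdm1 and Nt5e, were named after their values were seen. The alternatives were a replicate block, median-of-ratios size factors, no filter, DESeq2 1.42.0, limma 3.58.1 on log2(TPM + 0.1) and log2(TPM + 1), an ordinary linear model with the latter pseudocount, cKO libraries summed, each library left out, and for peaks any overlap, a −log10 q of at least 5, and merging.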

Additional observations from a re-analysis of the deposited data

How the results depend on the processing

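Of 4 Hedgehog genes called, the count was 4 under the replicate block, median-of-ratios factors, no filter and DESeq2, 2 under limma on log2(TPM + 0.1), 2 under limma on log2(TPM + 1), 2 with cKO libraries summed and 0 in the ordinary linear model (3 at an unadjusted p under 0.05, as against 4 in edgeR), and ranged from 2 to 7 with each library left out. Over all genes, 4677 calls became 65 in the ordinary linear model and 1981 with cKO libraries summed, in a leave-one-out range from 1889 to 8719. Other pathway genes gave 25 calls, 0 in the ordinary linear model (21 at an unadjusted p under 0.05), 16 with cKO libraries summed, and 16 to 40 with a library left out. Fewer residual degrees of freedom are part of the summed and left-out fits by construction, and there the lone sample is assumed to vary like the other group; the cause of the other shifts was not tested.

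The replicate numbers share only a label: differences between replicates 1 and 2 correlated by 0.0264 across genes between the genotypes, so the samples were not paired, and the replicate block gave 4881 calls over all genes and 27 among other pathway genes. Signs turned for some values that had not been called in edgeR with all 4 libraries, and Gas1 and Ccnd2 passed the threshold in opposite directions without WT replicate 1 and without WT replicate 2. On the log2(TPM + 0.1), log2(TPM + 1) and ordinary-model scales, Gas1 was at 0.0610, 0.0590 and 0.0590, Sufu at 0.0545, 0.0518 and 0.0518, and Ccnd2 at 0.0828, 0.0813 and 0.0813. With each library left out, Gli1 ranged from −0.12 to 0.19, Gas1 from −0.46 to 0.38, Ccnd2 from −0.32 to 0.22, Mettl3 from −0.082 to 0.019 and Prkar1a from −0.014 to 0.064. The median of all genes moved to 0.0965 under limma on log2(TPM + 0.1). The 10 peaks stayed 10 with any overlap and after merging, and were 9 at a −log10 q of at least 5. Depth limited Hhip, Gli1 and Ihh.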
